A study of Mus musculus with 24 samples.

Results

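The miR-199 and miR-214 miRNAs are mature small RNAs of the mesenchyme: mmu-miR-199a-5p, mmu-miR-199a-3p, mmu-miR-199b-5p, mmu-miR-199b-3p, mmu-miR-214-3p and mmu-miR-214-5p, written from here on without the species prefix. The 6 members were chosen by name from the 1221 mature miRNA names that had been counted. Entries were found for 5 of them, and miR-199b-3p is not analysed here. Of these 5, 4 passed the filter on low counts and were tested among 414 miRNAs; miR-199b-5p did not pass it.

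All libraries came from one immortalised mouse fibroblast line, 3T9, kept in DMEM with 10% serum. Cells were pulsed for 3 h with 300 µM 4-thiouridine (4SU), a uridine analogue that is built into newly made RNA, and then chased with 1 mM uridine. Labelled RNA was biotinylated at its thiol groups and captured on streptavidin beads at 0, 2, 4, 6, 8, 10 or 12 h of chase, in 3 experiments that the series design calls independent, which gave 21 labelled libraries. There was 1 library each of total RNA from untreated cells, total RNA from 4SU-treated cells and RNA captured from untreated cells. The last is called the mock extraction here, and its RNA should carry no label. Depth was 1133048 to 7886484 miRNA counts in the labelled libraries, 6412428 in untreated total RNA, 4525638 in 4SU-treated total RNA and 283922 in the mock extraction. The 18 other miRNAs listed as typical of fibroblasts or mesenchyme summed to 204266 to 368546 CPM (counts per 1000000 miRNA counts of the library) in the labelled libraries. The listed blood, neural, muscle and endothelial miRNAs reached at most 734, 516, 22.1 and 2.65 CPM, with 2 of the 4 muscle names at 0 in every labelled library. The 8 epithelial miRNAs summed to 202 to 1151 CPM, with none of the 8 at 0 throughout. They stood at 740 CPM in the mock extraction, 187 CPM in untreated total RNA and 33.4 CPM in 4SU-treated total RNA. In labelled RNA most of the sum was miR-205-5p, at 710 ± 403 CPM at 0 h and 368 ± 143 CPM at 12 h (SD, n = 3). With the experiment as a block in the slope over chase hours, miR-205-5p (-0.05 log2 per hour, edgeR adjusted p = 0.000319) and the muscle miRNA miR-206-3p (-0.07, edgeR adjusted p = 0.0222; 9.02 CPM on average) fell, and neither passed without the block (edgeR adjusted p = 0.348 and 0.368). Their part in the results on the members was not tested.

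A miRNA is cut from a hairpin in a longer transcript, and either arm of the hairpin can be loaded into an Argonaute protein, where bases 2 to 8, the seed, pair with target mRNAs. The better-loaded arm is usually kept, and the other is usually lost soon after processing. In mesenchyme a miR-199a hairpin, Mir199a-2, and the miR-214 hairpin are made from the same noncoding transcript, Dnm3os. Its transcription is known to be driven by the mesodermal factor Twist1. miR-214-3p is known to repress Ezh2, miR-199a-3p is known to repress Mtor and Met, and miR-199a-5p has been tied to Hif1a and Cav1. In a pulse-chase experiment a miRNA that is lost faster than the rest of the labelled pool takes a falling share of the counts, and one that persists takes a rising share. A share that falls through loss of the miRNA and one that falls because other miRNAs gain cannot be told apart in these counts.

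Mature sequences were found for 5 of the 6 names in RefSeq (GRCm38.p6), and they are shown with the seed in capitals because the seed sets the targets and because miR-214-3p holds fewer uridines, the base that 4SU replaces, than the others.
mmu-miR-199a-5p: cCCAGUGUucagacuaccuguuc
mmu-miR-199a-3p: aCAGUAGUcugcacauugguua
mmu-miR-199b-3p: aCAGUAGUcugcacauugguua
mmu-miR-214-5p: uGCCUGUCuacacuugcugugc
mmu-miR-214-3p: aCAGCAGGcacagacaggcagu
The sequences of miR-199a-3p and miR-199b-3p are identical, so reads of the 2 genes cannot be told apart and the counts named miR-199a-3p may hold both. The seed of miR-214-3p occurs in 1 other reference name, miR-761, which was not among the tested miRNAs. miR-214-3p holds 1 uridine, its last base, whereas miR-199a-5p and miR-199a-3p hold 7 each and miR-214-5p holds 8. Among the 346 tested miRNAs with a sequence the median was 6 uridines, and 6 miRNAs, miR-214-3p included, held 1 or none.

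The hairpins on chromosome 1 are shown with both mature arms in capitals, since the results turn on the arms.
Mir199a-2: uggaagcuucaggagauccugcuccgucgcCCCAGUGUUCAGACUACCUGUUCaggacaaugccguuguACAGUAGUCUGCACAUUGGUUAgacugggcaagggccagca
Mir214: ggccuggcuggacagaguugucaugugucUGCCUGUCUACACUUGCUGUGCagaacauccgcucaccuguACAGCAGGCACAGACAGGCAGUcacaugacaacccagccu
Mir199a-2 lies at chr1:162217814-162217923 and Mir214 at chr1:162223368-162223477, both on the plus strand of GRCm38 with 5444 bases between them. Per the GENCODE annotation of that build, both fall in an exon of Dnm3os (chr1:162217623-162225550), which is antisense to the protein-coding gene Dnm3. miR-199a-5p and miR-199a-3p have a second source, Mir199a-1, at chr9:21496495-21496564 on the minus strand, opposite to Dnm2. Mir199b lies at chr2:32318460-32318569, opposite to Dnm1. The build to which the reads were aligned is not given in the sources used here, and counts are per mature name, so the 2 genes of miR-199a were not separated.

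miR-199a-3p was the most abundant member and miR-199b-5p was barely detected. At 0 h miR-199a-3p stood at 12069 ± 4328 CPM (SD, n = 3), which was rank 19 among all names. It was followed by miR-214-3p at 2214 ± 1265 CPM, miR-199a-5p at 1227 ± 644 CPM and miR-214-5p at 182 ± 97.3 CPM. Mature miRNAs are of nearly equal length, so these levels need no correction for length. They are shares of labelled RNA. In total RNA miR-199a-5p stood above miR-214-3p, at 2336 against 851 CPM in untreated and 1527 against 737 CPM in 4SU-treated cells (1 library each). The ranges of miR-214-3p (841 to 3330 CPM) and miR-199a-5p (673 to 1933 CPM) overlapped at 0 h, and their order was not separated from the spread; the other neighbours did not overlap. By 12 h miR-199a-5p, at 1289 ± 742 CPM, stood above miR-214-3p, at 733 ± 407 CPM, again with overlapping ranges (802 to 2143 and 317 to 1131 CPM). miR-199b-5p had 0 to 15 counts per labelled library, a level of at most 3.19 CPM. Untreated total RNA held 26 counts of it (4.05 CPM, exact binomial 95% interval 2.65 to 5.94) and 4SU-treated total RNA held 2. The mock extraction held 0 (exact binomial 95% interval up to 12.99 CPM), and 3 counts are 10.6 CPM at its depth.

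The slope over the chase asked whether a member gained or lost share among labelled miRNAs with time, and only miR-214-3p among the 4 tested members passed the test. In experiment 1 it stood at 3330, 2464, 1898, 2037, 1450, 1001 and 1131 CPM at 0, 2, 4, 6, 8, 10 and 12 h. Experiment 2 gave 841, 530, 571, 573, 498, 392 and 317 CPM at the same times, and experiment 3 gave 2471, 1713, 1341, 1401, 915, 699 and 750 CPM. The 0 h library was the highest of its experiment in all 3, and the level at 12 h was 2.94, 2.65 and 3.29 times lower than at 0 h in experiments 1, 2 and 3. The 0 h and 12 h groups overlap (841 to 3330 against 317 to 1131 CPM), because experiment 2 lay below the others throughout. The slope of miR-214-3p was -0.11 log2 per hour (SE 0.0345, edgeR quasi-likelihood test, adjusted p = 0.0311), the 24th lowest of 414. Over all tested miRNAs, 51 of 414 passed (12.3%), and 1 of 4 members did. Of these 51, 21 rose and 30 fell; the split was 10 and 47 by library totals and 39 and 24 with upper-quartile scaling, and miR-214-3p passed in both.

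The other tested members did not pass, and their slopes lay on both sides of 0. The same edgeR fit gave -0.02 for miR-199a-3p (SE 0.0309, adjusted p = 0.748) and 0.02 for miR-199a-5p (SE 0.0299, adjusted p = 0.724). For miR-214-5p it gave -0.00044 (SE 0.0326, edgeR adjusted p = 0.995), a value whose sign turned with upper-quartile scaling (0.0067) and with the experiment as a block (0.0011). The median over the 414 tested miRNAs was -0.0037. From the lowest slope, miR-199a-3p ranked 134th, miR-214-5p 220th and miR-199a-5p 295th of 414.

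**Figure D1:**
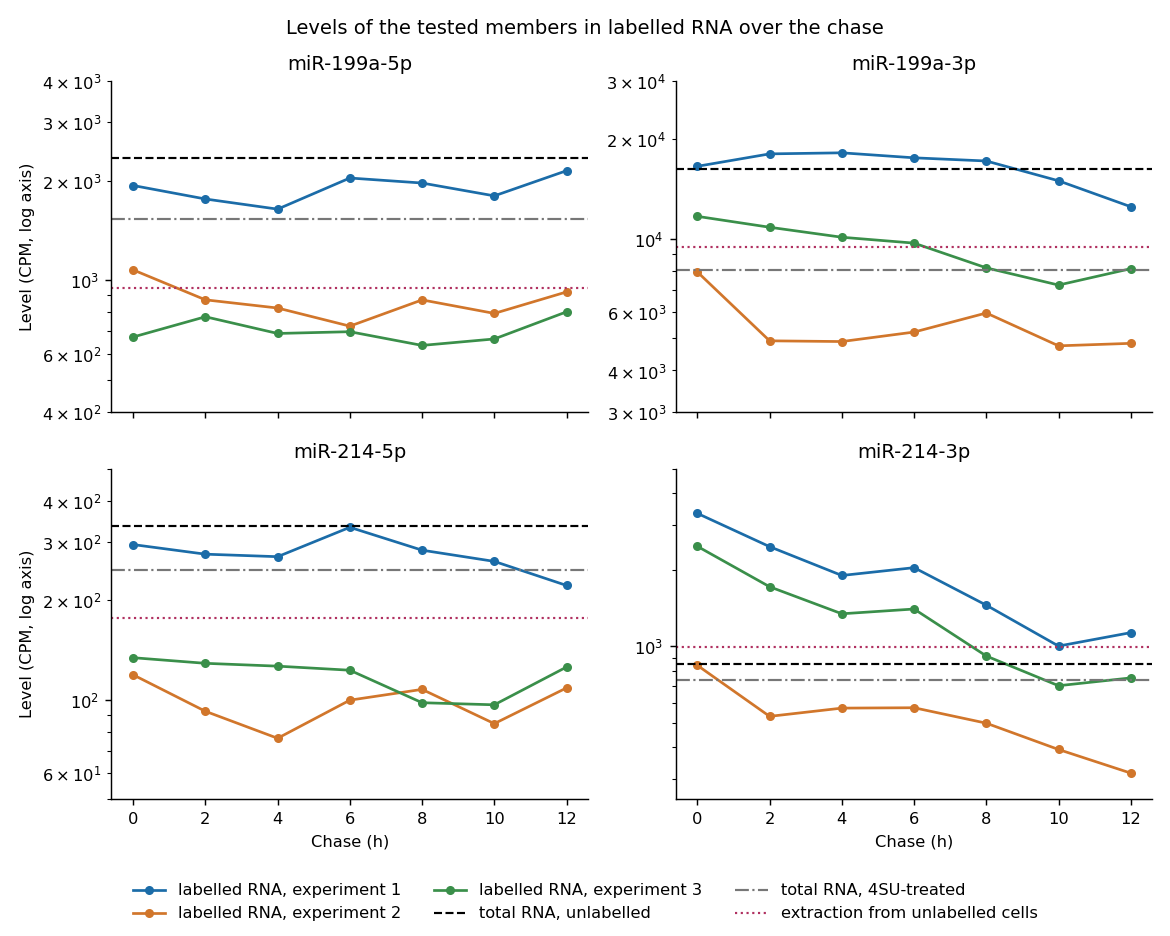
Level in CPM (log axis) of the 4 tested members against hours of chase; points joined by lines are the labelled libraries of each experiment, and horizontal lines are the 3 single control libraries. miR-214-3p starts at 3330, 841 and 2471 CPM in experiments 1, 2 and 3 and ends at 1131, 317 and 750 CPM, and the medians of experiment 1 are the highest in every panel.

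**Figure D2:**
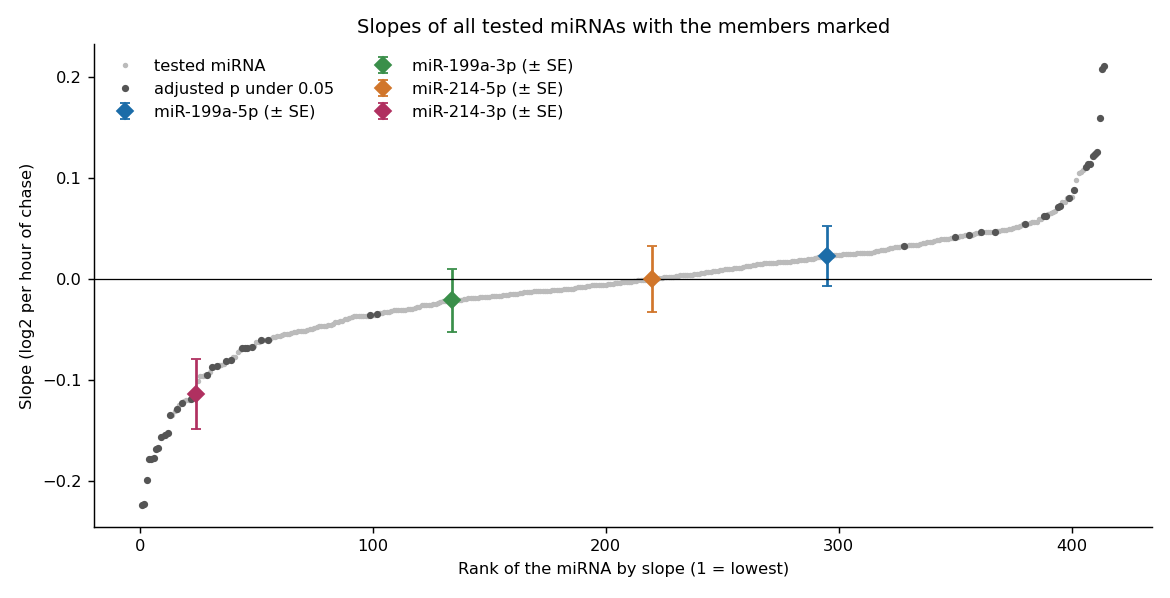
Slope in log2 per hour of chase for the 414 tested miRNAs, ordered from lowest to highest, with dark points for adjusted p under 0.05 and diamonds with SE for the members. miR-214-3p is the 24th lowest, and the other 3 members lie at ranks 134, 220 and 295.

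The experiments differed in level, so the slopes were also taken within each. Experiment 1 was the highest for each tested member: the median over its 7 libraries was 1898 CPM for miR-214-3p, against 530 in experiment 2 and 1341 in experiment 3. For miR-214-5p the medians were 275, 99.7 and 126 CPM, and for miR-199a-5p they were 1933, 872 and 690 CPM, without overlap between experiment 1 and the others in either case. Each experiment has its own code in the column headers, whose meaning is not given in the sources used here. The mock extraction shares the code of experiment 1 and both total RNA libraries share another, so what the code stands for cannot be told apart from experiment or from labelled against total RNA. Within experiments miR-214-3p had slopes of -0.12, -0.08 and -0.12 log2 per hour, with exact permutation p-values (two-sided, 7 libraries each) of 0.00278, 0.0103 and 0.00119. Adjusted over the 12 slopes of the 4 members, these were 0.0167, 0.031 and 0.0143. The only other within-experiment slope to pass was that of miR-199a-3p in experiment 3, -0.03 log2 per hour (exact permutation p = 0.00754, adjusted 0.0302). Its slopes in experiments 1 and 2 were -0.02 and -0.02, with adjusted exact permutation p-values of 0.35 and 0.697.

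With the experiment as a block, 132 of 414 miRNAs passed (31.9%) and 2 of 4 members did. The blocked slope of miR-214-3p was -0.11 (SE 0.00987, edgeR adjusted p = 2.16e-09). That of miR-199a-3p was -0.02 (SE 0.00823, edgeR adjusted p = 0.0377), which passed in this fit and not without the block. miR-199a-5p, at 0.02, had an edgeR adjusted p of 0.0585, and miR-214-5p one of 0.953. Without the block the call of miR-214-3p was lost when any of 8 libraries was left out. The edgeR adjusted p was then 0.107 (0 h), 0.0503 (4 h) and 0.0507 (10 h) without a library of experiment 1; 0.0506 (8 h), 0.0689 (10 h) and 0.0781 (12 h) for experiment 2; and 0.0681 (0 h) and 0.0569 (2 h) for experiment 3. It was 0.114 without experiment 1, 0.233 without experiment 3, 0.226 without all 0 h libraries and 0.0858 without all 12 h libraries. The slope itself was between -0.135 and -0.0979 when 1 library was left out. With both the block and no 0 h libraries the slope was -0.0977 and the edgeR adjusted p was 6.57e-07.

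Single time points were compared next. Between 0 and 12 h miR-214-3p changed by -1.35 log2 (SE 0.595, edgeR adjusted p = 0.315), against -0.27, 0.31 and -0.02 for miR-199a-3p, miR-199a-5p and miR-214-5p, and no member passed. Without experiment 2 miR-214-3p passed at an edgeR adjusted p of 0.0464, and without the filter on low counts at 0.00116. In this contrast 5 of 414 miRNAs passed (1.21%). With the experiment as a block 90 passed (21.7%), among them miR-214-3p (-1.32, SE 0.137, edgeR adjusted p = 1.19e-07) as 1 of 4 members. Between 0 and 2 h, the first step of the chase, miR-214-3p changed by -0.45 log2 (SE 0.585, edgeR adjusted p = 0.998). This value was -0.03 without experiment 1 at 0 h or without experiment 2 at 2 h, -0.79 without experiment 2 at 0 h and -0.89 without experiment 1 at 2 h. There edgeR called 0 of 414 (0%) and DESeq2 called 1, with 10 at an unadjusted edgeR p under 0.05. With the block 14 passed (3.38%), and miR-214-3p was 1 of them (-0.48, edgeR adjusted p = 0.043). In each of the 3 experiments the level of miR-214-3p at 2 h was below that at 0 h.

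The 5p arm of the miR-214 hairpin gained on the more abundant 3p arm during the chase. Of 100 reads of miR-214-3p at 0 h there were 8.84, 14.1 and 5.42 reads of miR-214-5p in experiments 1, 2 and 3. At 12 h there were 19.6, 34.3 and 16.7, and these ranges do not overlap those of 0 h. The mean went from 9.47 ± 4.4% at 0 h to 14.2 ± 4.70% at 6 h and 23.5 ± 9.41% at 12 h (SD, n = 3 each). The slope of the log2 ratio was 0.109 per hour and positive in 3 of 3 experiments (permutation test with time points permuted within experiments, two-sided, 100000 resamples, p = 1e-05, the smallest these can give, adjusted p = 1.67e-05 over 5 ratios). A ratio within a library does not depend on how libraries were scaled. In total RNA the 5p arm made up 39.4% of the 3p arm in untreated cells and 33.5% in 4SU-treated cells, and it made up 17.8% in the mock extraction, from 50 counts of the 5p arm. All labelled libraries except experiment 2 at 12 h lay below both total RNA libraries.

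The arm ratio of miR-199a rose as well. miR-199a-5p made up 11.7, 13.5 and 5.76% of miR-199a-3p at 0 h and 17.1, 19.1 and 9.87% at 12 h in experiments 1, 2 and 3. The slope was 0.0414 log2 per hour, positive in 3 of 3 experiments (permutation test within experiments, adjusted p = 9e-04). The 0 h and 12 h ranges overlap, and with time permuted over all libraries the adjusted p was 0.174. Total RNA held 14.4% in untreated and 19.0% in 4SU-treated cells, and the mock extraction 9.97%. Counts of miR-199a-3p may include reads of miR-199b-3p, so this is a ratio of a name with 2 source genes to a name with possibly 3.

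**Figure D3:**
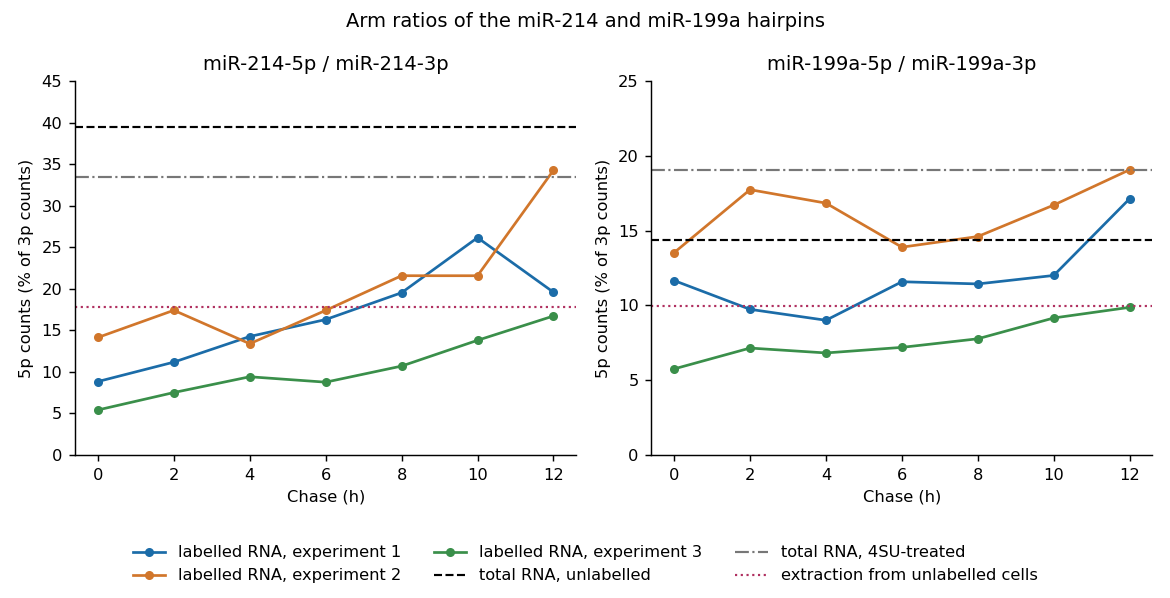
Counts of the 5p arm as a percentage of the 3p arm against hours of chase, for miR-214 (left) and miR-199a (right); points are labelled libraries by experiment and horizontal lines are the single control libraries. The miR-214 ratio rises from 5.42 to 14.1% at 0 h to 16.7 to 34.3% at 12 h, and the miR-199a ratio goes from 5.76 to 13.5% at 0 h to 9.87 to 19.1% at 12 h.

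Set against the hairpins that could be paired by name, the change in miR-214 was near the top of the range. For this, a slope of minor over major arm was computed for 102 miRNA names whose 5p and 3p forms were both tested under the same name. Hairpins with a copy number in the name of an arm, such as miR-125b-1-3p, were left out where the other arm has none. The major arm has the higher count over both total RNA libraries. This comparison was added after the members' ratios had been seen. The minor arm gained on the major arm in 5 of 102 (4.90%) by the adjusted permutation p, and miR-214 and miR-199a were 2 of these 5. miR-214 had the second highest slope and miR-199a the 15th highest, with p-values adjusted over the 102 of 0.000204 and 0.00668. The median slope was -0.0199, and in 21 of 102 names the minor arm lost share against the major arm by the same test. The highest slope belonged to miR-466b (0.119), one of a family of near-identical copies whose reads may be divided among names.

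**Figure D4:**
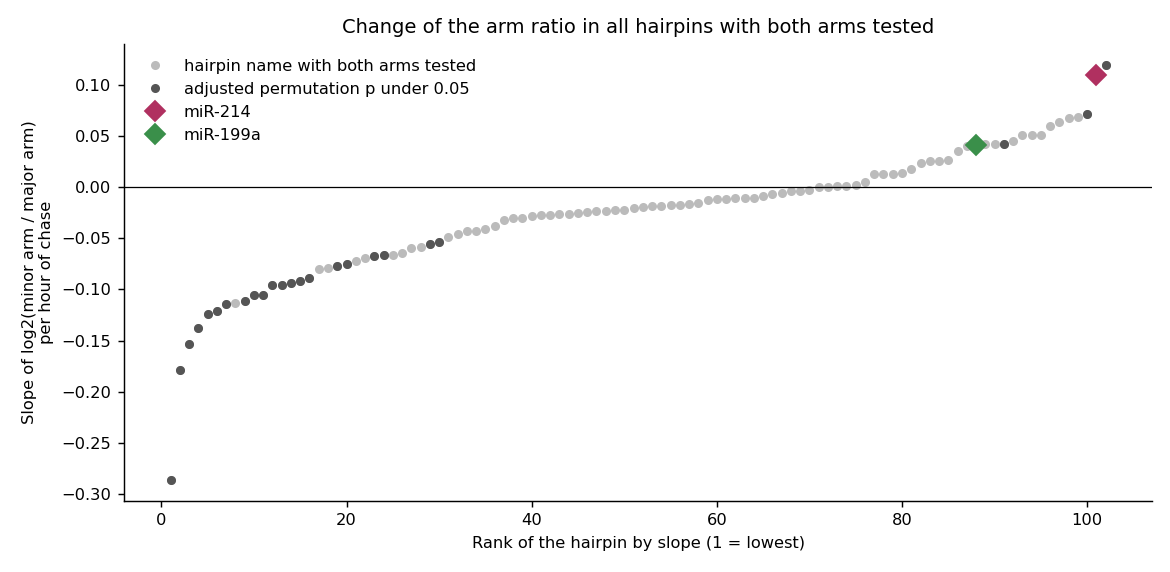
Slope of log2(minor arm / major arm) per hour of chase for the 102 miRNA names with both arms tested under the same name, in order. Dark points passed the permutation test. The diamond of miR-214 (0.109) is second from the top and that of miR-199a (0.0414) is 15th, while the median is -0.0199.

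Compared with the miR-199a names, miR-214-3p lost share against both arms. These are not ratios within Dnm3os alone, since the counts of both arms may include reads of Mir199a-1, and those of miR-199a-3p also reads of Mir199b. It made up 20.1, 10.6 and 21.1% of miR-199a-3p at 0 h in experiments 1, 2 and 3, and 9.04, 6.56 and 9.24% at 12 h, with no overlap. The slope was -0.0855 log2 per hour (permutation test within experiments, adjusted p = 1.67e-05). Against miR-199a-5p the slope was -0.127 (permutation test within experiments, adjusted p = 1.67e-05), and the means were 206 ± 147% at 0 h and 60.2 ± 30.3% at 12 h. Both slopes were negative in 3 of 3 experiments. The ratio of miR-199b-5p to miR-199a-5p had a slope of -0.0118 (permutation test within experiments, adjusted p = 0.745), and at 0 to 15 counts of miR-199b-5p per library a change was not detectable. Of the 5 ratios, 4 passed.

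The control libraries show where the members stood in total RNA and in the mock extraction. The 4SU-treated total RNA has another header code than the 3 experiments and no chase time, so it is not a matched input of the labelled libraries. At 0 h miR-214-3p was above its level in 4SU-treated total RNA (737 CPM) in all 3 experiments. By library totals this was so for 133 of 414 tested miRNAs (32.1%) and for 1 of the 4 members; with TMM factors over all 24 libraries miR-199a-3p was also above in all 3, by at least 0.18 log2. The mean log2 ratio of miR-214-3p at 0 h to 4SU-treated total RNA was 1.37 ± 1.04 (SD, n = 3, pseudocount 1 CPM), and the ratio of the means ranked 29th of 414 (1.58, against a median of 0.03). miR-199a-3p, at 8028 CPM in 4SU-treated total RNA, had a mean log2 ratio of 0.52 ± 0.53, with experiment 2 slightly below. miR-199a-5p and miR-214-5p had mean ratios of -0.45 ± 0.76 and -0.56 ± 0.71, each with experiment 1 above and the others below. No member was below that library in all 3 experiments at 0 h, as 151 of 414 were (36.5%). At 12 h 1 of the 4 members, miR-214-5p, was below it in all 3, as were 210 of 414 (50.7%); with TMM factors experiment 1 was above, by 0.28 log2.

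The mock extraction also held the 4 tested members. It gave 990 CPM of miR-214-3p from 281 counts (exact binomial 95% interval 877 to 1112), 9467 CPM of miR-199a-3p (9114 to 9830), 944 CPM of miR-199a-5p (834 to 1064) and 176 CPM of miR-214-5p (131 to 232). For miR-214-3p the 0 h libraries of experiments 1 and 3 lay above that value and the one of experiment 2 (841 CPM) below it. Its mean log2 ratio of 0 h to the mock extraction was 0.94 ± 1.04 (SD, n = 3). By library totals miR-214-3p was 0.22 log2 higher in the mock extraction than in untreated total RNA. miR-199a-3p (-0.78), miR-199a-5p (-1.31) and miR-214-5p (-0.93) were lower there. With TMM factors over all 24 libraries the 4 values were -0.01, -1.01, -1.54 and -1.16. Each compares 1 library with 1, with no test. The mock levels are shares of a library of 283922 counts. Intervals here cover counting error only, since the reads carry no molecular identifiers. How much unlabelled RNA was carried into each labelled library was not tested.

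All 4 tested members were lower in 4SU-treated than in untreated total RNA, with 1 library of each and no test. miR-199a-3p stood at 8028 against 16215 CPM, miR-199a-5p at 1527 against 2336, miR-214-5p at 247 against 335 and miR-214-3p at 737 against 851. The share of tested miRNAs that were lower in the treated library was 122 of 414 (29.5%). The log2 ratios of the members ran from -1.01 to -0.21 by library totals and from -1.45 to -0.64 with TMM factors over all 24 libraries.

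With 1 uridine in its mature sequence, miR-214-3p, counted over all its read forms, stood above 4SU-treated total RNA at 0 h. It was above the mock extraction in experiments 1 and 3 and below it in experiment 2. Over the 346 tested miRNAs with a sequence, Spearman's rho between the number of uridines and the log2 ratio of 0 h to 4SU-treated total RNA was 0.01, and between uridines and slope it was 0.09. Both are descriptions across miRNAs, which share libraries and are not independent replicates. The other 5 tested miRNAs with at most 1 uridine were at 3.33 to 9.33 CPM on average, against 1253 CPM for miR-214-3p. Their ratios ran from -0.03 (miR-700-3p) to 2.31 (miR-483-5p, with no uridine), and none of them passed the slope test.

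The members differed in the make-up of their reads. The classes group those of the table. They are the canonical sequence, trimmed forms, 3′ extensions that match the hairpin, 3′ additions that do not, and forms with another 5′ end. The last shift the seed. Canonical, trimmed and 5′ forms each sum entries marked templated and non-templated. Non-templated additions here are therefore those of the 3′ class only. miR-214-5p was the most uniform, with a median of 91.2% canonical reads over the 21 labelled libraries (85.8 to 99.2%). miR-214-3p had 44.6% canonical, 31.6% trimmed and 13.3% 5′ variants (11.4 to 17.3%), the largest share of shifted seeds among the 4. Its only uridine is its last base, which a form trimmed at the 3′ end lacks. Its trimmed share was 30.7 ± 4.66% at 0 h and 31.2 ± 2.18% at 12 h (SD, n = 3). It was 28.4% in untreated and 25.2% in 4SU-treated total RNA, and 19.6% in the mock extraction. Whether its trimmed reads carried label was not tested. miR-199a-5p had 48.6% canonical reads, 19.8% non-templated additions and 12.0% templated extensions. Only 22.4% of miR-199a-3p reads were canonical, and 60.7% were trimmed.

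The bases counted as non-templated additions differed between the 2 arms of miR-199a. Added U made up 18.3% of miR-199a-5p reads (16.1 to 21.6%) and added A 0.544%. In miR-199a-3p added A made up 9.70% (7.26 to 13.6%) and added U 2.32%, and the ranges of the arms did not overlap for either base. For A the arms are not counted alike. In both miR-199a hairpins the base after miR-199a-5p is A, so an A added there can be counted as a templated extension. The base after miR-199a-3p is G. miR-214-3p carried 3.62% added A and 1.65% added U. Non-templated addition is known to be made by terminal nucleotidyl transferases, which act on the exposed 3′ end of a loaded miRNA.

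Of 20 tests of a class against chase time, 1 passed. Non-templated additions to miR-199a-3p rose by 0.207 percentage points per hour (permutation test within experiments, adjusted p = 0.0022), in 3 of 3 experiments. They made up 10.5, 13.5 and 14.0% of its reads at 0 h and 11.8, 19.0 and 15.3% at 12 h in experiments 1, 2 and 3. These ranges overlap, since experiment 1 lay below the others at every time. Without experiment 2 the slope was 0.124 and the adjusted p was 0.0554, and with time permuted over all libraries it was 0.606. The share was 14.2% in untreated and 16.5% in 4SU-treated total RNA. Trimmed reads of miR-214-5p were 5.71, 7.52 and 5.83% at 0 h and 12.7, 13.01 and 13.5% at 12 h, without overlap. The slope of 0.441 percentage points per hour had an adjusted permutation p of 0.0824 and did not pass. The libraries between varied from 0.833 to 14.2%, both at 4 h, on as few as 120 counts.

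**Figure D5:**
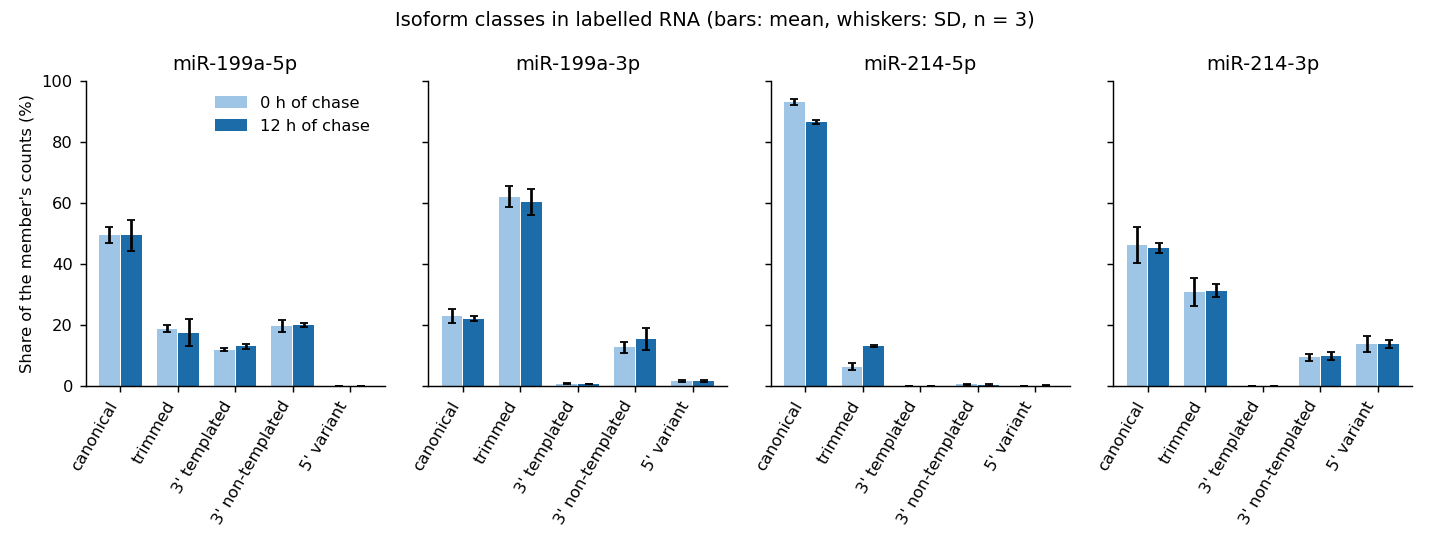
Mean share of each member's counts (bars, with SD whiskers, n = 3 experiments) in 5 isoform classes at 0 h and 12 h of chase. miR-214-5p is mostly canonical, at 93.0% and 86.5%, miR-199a-3p is mostly trimmed, and miR-214-3p holds the largest share of 5′ variants.

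The miRNAs whose log2 CPM followed miR-214-3p most closely over the 21 labelled libraries were miR-671-5p (Pearson's r = 0.947), miR-335-5p (0.943), miR-466a-3p (0.925), miR-669a-3p (0.922) and miR-466d-3p (0.911). Their slopes ran from -0.22 to -0.09 log2 per hour. Of the 5, 4 passed the edgeR test, against 51 of all 414 (12.3%), and miR-466a-3p had an edgeR adjusted p of 0.0501. They were picked for following a falling miRNA over the same libraries, so falling slopes come with the choice and are no separate result. For miR-199a-3p the 5 closest were miR-15a-5p (0.948), miR-669a-5p (0.947), miR-669l-5p (0.925), miR-196b-5p (0.924) and miR-574-3p (0.924). None of these passed without the block. With the experiment as a block, miR-574-3p (-0.04 log2 per hour, edgeR adjusted p = 0.00425) and miR-669l-5p (-0.04, edgeR adjusted p = 0.0418) fell, as did miR-466a-3p (-0.09, edgeR adjusted p = 2.05e-05). Between members r was 0.905 for miR-199a-3p and miR-214-5p, 0.859 for miR-199a-3p and miR-214-3p, 0.659 for the 2 arms of miR-214, 0.642 for the 2 arms of miR-199a and 0.325 for miR-214-3p and miR-199a-5p. These points share experiments, whose levels differ, so the coefficients describe the libraries only.

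Among the 18 other fibroblast and mesenchymal miRNAs, all tested, 4 rose and 1 fell over the chase, against 51 of all 414 (12.3%). Their median slope was 0.0016, against -0.0037 over all 414. miR-21a-5p (0.06 log2 per hour), miR-125b-5p (0.03), miR-130a-3p (0.05) and miR-29c-3p (0.11) rose, and miR-100-5p fell by 0.06 (edgeR adjusted p = 0.00897, 0.0363, 0.00152, 0.0211 and 0.00813). The abundant miR-143-3p (-0.00018) and miR-27b-3p (0.04) did not pass without the block. With the experiment as a block 8 rose and 3 fell, against 132 of all 414 (31.9%), and miR-27b-3p was among those that rose (0.04, edgeR adjusted p = 0.000919). miR-214-3p had a lower slope than each of these 18.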

How the data were processed

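Small RNA libraries (TruSeq small RNA kit, per the labels' protocols) were made from total RNA or from RNA captured with biotin-HPDP and streptavidin. The authors deposited 1 table of raw read counts per isoform class and miRNA. CASAVA 1.8.0 is named in the submitters' processing notes. No aligner, annotation or build is named in the labels or headers. Of 7129 entries 1 duplicate was removed, and 8 of 20 classes that do not repeat each other were summed per mature name.

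Slopes over chase hours and contrasts of time points were fitted over the 21 labelled libraries with edgeR 4.0.16 (R 4.3.3; TMM, filterByExpr, quasi-likelihood test, Benjamini-Hochberg threshold 0.05). DESeq2 1.42.0, other scalings and filters, a block for the experiment and left-out libraries were tried as alternatives. Ratios (pseudocount 1 CPM) and isoform shares (members with at least 50 counts in each labelled library) were tested by permutation of time within experiments (100000 resamples). Within-experiment slopes were tested over all 5040 orders. Libraries of 1 experiment deviated together from the time-point means (r = 0.311 to 0.738 over 63 pairs), so the experiment number pairs them. Between experiments r was -0.647 to 0.227. Each mean is taken over the 3 experiments, which ties these values to those within experiments, so they are no separate contrast. The edgeR p-values without the block measure the spread among the 21 labelled libraries of 1 cell line, taken as independent. Blocked fits and permutation within experiments measure the spread of libraries within experiments. None of these p-values measures how a slope varies between the 3 experiments. The edgeR slope fit and the permutation test were also run on simulated data, with no outcome given here. The counts simulated for edgeR held no experiment effect, unlike these libraries.

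Members and lists were chosen with earlier results of these data known. All 6 members were to be named, with the 3 most abundant or called miRNAs of the related list and the 5 miRNAs most correlated with miR-214-3p and with miR-199a-3p. The depth of a library sets its floor: 3 counts are 0.38 to 2.65 CPM in labelled libraries. Sequences are from RefSeq (GRCm38.p6).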

Additional observations from a re-analysis of the deposited data

How the results depend on the processing

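miR-214-3p kept a negative slope in every alternative fit run; its call was lost without 0 h, without 12 h, without experiment 1 or 3 and without any of 8 single libraries, and was kept in 13 of 21 fits that leave out 1 library. In the other alternatives it was kept. The count of miRNAs with a slope past the threshold was 132 with the replicate block, 14 without 0 h, 21 without 12 h, 92 with the block and without 0 h, and 147, 133 and 139 with the block and library totals, upper-quartile scaling or RLE size factors. It was 29 to 54 when 1 library was left out and 15 to 79 when 1 experiment was left out (20, 79 and 15 without experiments 1, 2 and 3). Between 12 and 0 h the count was 90 with the replicate block, 14 by library totals, 8 with upper-quartile scaling, 10 without the filter, 1 with every deposited entry summed, 15 with DESeq2 and 0 to 12 with a library or experiment left out. The median of all tested miRNAs in this contrast was -0.05 log2 with TMM, -0.29 by library totals and 0.08 with upper-quartile scaling. Between 2 and 0 h it was 14 with the block, 1 with DESeq2 and 0 to 1 with a library or experiment left out.

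Changes near 0 turned sign. The slope of miR-214-5p was 0.0011 with the block, 0.0067 with upper-quartile scaling, 0.0012 without 0 h, 0.0055 with the block and without 0 h, 0.011 with the block and upper-quartile scaling, and -0.0148 to 0.017 with 1 library left out; its change from 0 to 12 h was 0.0277, 0.0800 and 0.0101 with the block, upper-quartile scaling and every entry summed, and -0.38 to 0.45 with 1 library left out. Left-out libraries gave -0.0042 to 0.0394 for the slope of miR-199a-5p, -0.25 to 0.73 for its change to 12 h and -0.46 to 0.42 to 2 h, -0.64 to 0.0446 and -0.52 to 0.31 for the changes of miR-199a-3p, and -0.62 to 0.43 for miR-214-5p to 2 h; miR-214-3p to 2 h was -0.89 to -0.03. With every entry summed the change to 2 h was 0.00051 for miR-199a-3p and 0.025 for miR-199a-5p. With the block, miR-199a-3p also passed by library totals and RLE factors, and not with upper-quartile scaling or without 0 h; miR-199a-5p passed with the block in these last 2 fits (0.03 and 0.03, edgeR adjusted p = 0.00955 and 0.0387). The block changed no other call of a member beyond those in the report.

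The number of ratios past the threshold was 4 without any 1 experiment. The slope of miR-199a-5p over miR-199a-3p, 0.0414, had an adjusted permutation p of 0.174 without the block, and that of miR-199b-5p over miR-199a-5p was 0.0055 from canonical templated reads. Non-templated additions to miR-199a-3p (0.207 percentage points per hour) had an adjusted permutation p of 0.606 without the block, and the slope was 0.124 to 0.251 with 1 experiment left out; the number of isoform tests past the threshold was 0 without the block, 0 from templated reads only and 0 to 1 with 1 experiment left out. Isoform slopes that turned sign, none past the threshold, were without 0 h -0.0076 for non-templated additions to miR-199a-5p, 0.00198 for templated extensions of miR-199a-3p, and -0.022 and 0.00055 for non-templated additions to miR-214-3p and miR-214-5p; from templated reads only, 0.0485 for trimmed and 0.0013 for extended miR-199a-3p. With 1 experiment left out the ranges were, for miR-199a-5p, -0.244 to 0.0108 (canonical), -0.0888 to 0.112 (trimmed) and -0.0296 to 0.0386 (non-templated); for miR-199a-3p, -0.237 to 0.0129 (trimmed) and -0.0074 to 0.0097 (extended); and for miR-214-3p, -0.0557 to 0.412 (trimmed), -0.0985 to 0.101 (non-templated) and -0.0165 to 0.11 (5′ variants). The cause of these changes was not tested. Summing miR-199a-3p with miR-199b-3p gave no value, since miR-199b-3p is not analysed here.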
